A study of Homo sapiens with 3 samples.

Results

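Base excision repair and the repair of single-strand breaks were examined in H9, an established human embryonic stem cell line, through 9 genes. They are UNG, OGG1, NTHL1, APEX1, POLB, XRCC1, LIG3, PARP1 and PARP2, named for their roles in these pathways and not for their values, and each matched 1 of the 58051 Ensembl identifiers with deposited counts. Total RNA of 3 replicates of wild-type, untreated H9 cells was sequenced after removal of ribosomal RNA, and reads were counted per gene. Cells were kept without feeders, on Vitronectin-XF and in Essential 8 Flex medium. Since every library comes from the same condition, there were no groups to test. The labels do not say whether the replicates were separate cultures, and the SD between them may be technical. The study used expression levels of this kind to sort TSSs and splice sites. It also examined where PARP1 binds around replication origins, in available data from other cell lines.

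In base excision repair, a DNA glycosylase removes a damaged or wrong base and leaves an abasic site, which an AP endonuclease cuts. A polymerase then fills the gap, and a ligase closes the nick. The resulting single-strand break, like breaks that arise directly, is sensed by poly(ADP-ribose) polymerases, which recruit the scaffold XRCC1 and its partners. Dividing cells use the pathway against uracil built in during replication and against oxidized bases.

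Totals of 8655155 to 12024802 reads were counted on genes in the 3 libraries. All 8 pluripotency markers examined, POU5F1, NANOG and SOX2 among them, were in the high expression class defined below, with means from 275 to 2576 TPM. None of the 12 markers of neural, mesodermal, endodermal and fibroblast cells was in that class, and the highest of them was COL1A1 at 14.6 TPM. Replicate 3 held relatively more reads on GC-rich genes than the other libraries, and this is given below for each gene it concerns. In bulk RNA, fewer expressing cells and less RNA per cell cannot be told apart.

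All 9 repair genes were transcribed, over a 73.1-fold range of levels with all exons as length and 17.7-fold with the canonical transcript. They held 17263, 19678 and 13922 reads in replicates 1, 2 and 3, or 0.164 ± 0.00264% of the counted reads (SD, n = 3). PARP1 alone took 47.0% of these reads. Levels between genes are given in TPM, transcript counts scaled to a total of 1000000 in every library after the count of each gene is divided by its length. Length was that of all annotated exons of the gene merged together. The same counts divided by the length of the canonical transcript alone are given beside it, because the choice moved several genes by more than their SD between replicates. By mean TPM over all exons the order was APEX1, PARP1, UNG, LIG3, XRCC1, PARP2, NTHL1, POLB and OGG1. The median of the 9 means was 50.9 TPM, against 7.10 TPM over all 19629 protein-coding genes.

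**Figure D1:**
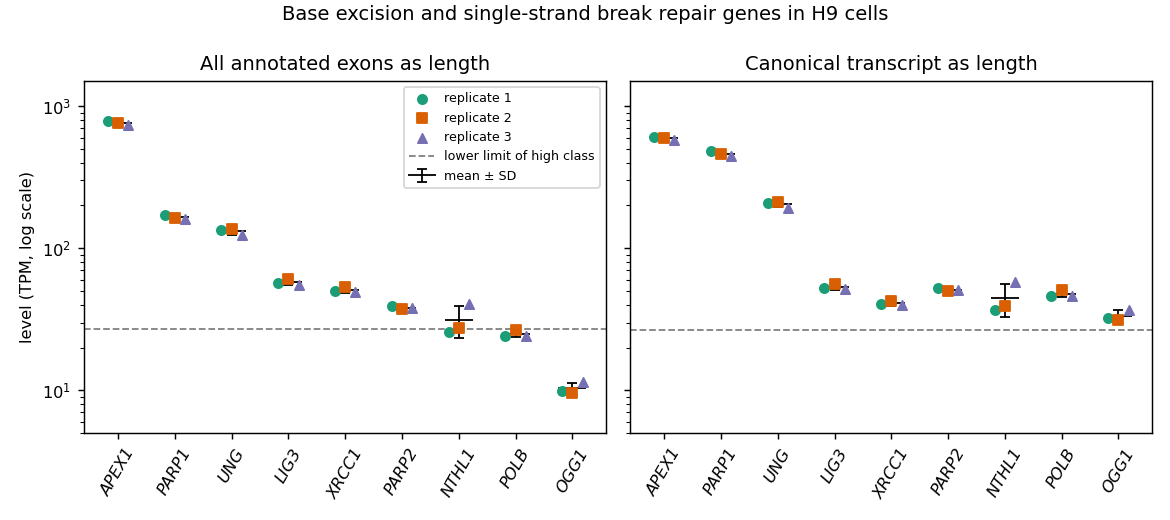
Level of each repair gene in TPM (log axis) in replicates 1 to 3 of H9 cells, with the mean and SD (n = 3), using the length of all annotated exons (left) or of the canonical transcript (right). APEX1 was highest on both scales, and the 6 genes from LIG3 to OGG1 lay closer together on the right, from 33.5 to 53.6 TPM, than on the left, from 10.3 to 57.7 TPM.

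Genes under 0.01 TPM were called nonexpressed and the remaining protein-coding genes were divided into 3 quantiles of the mean. The study's own classes used the same scheme on Cufflinks values, which were not used here, and its text does not limit them to protein-coding genes. The high class began at 27.0 TPM and held 28.8% of protein-coding genes. Of the 9 repair genes, 7 were in it. POLB, at 24.9 TPM, and OGG1, at 10.3 TPM, were in the medium class, which began at 3.35 TPM. NTHL1, at 31.2 TPM, was just inside the high class. Without replicate 3 its mean was 26.7 TPM and the class began at 27.4 TPM, so that it held 6 of the 9, beside 28.4% of protein-coding genes. With canonical transcripts as length the class began at 26.4 TPM and all 9 genes were in it, again beside 28.8% of protein-coding genes. With the longest transcript as length OGG1, at 13.7 TPM, was the single gene of the 9 outside it, and it held 28.8% of protein-coding genes. With quantiles over all genes, noncoding ones included, the class began at 8.57 TPM and held all 9 genes, beside 47.6% of protein-coding genes. With genes under 1 TPM called nonexpressed it began at 37.9 TPM and held 6 of the 9, beside 22.5%.

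**Figure D2:**
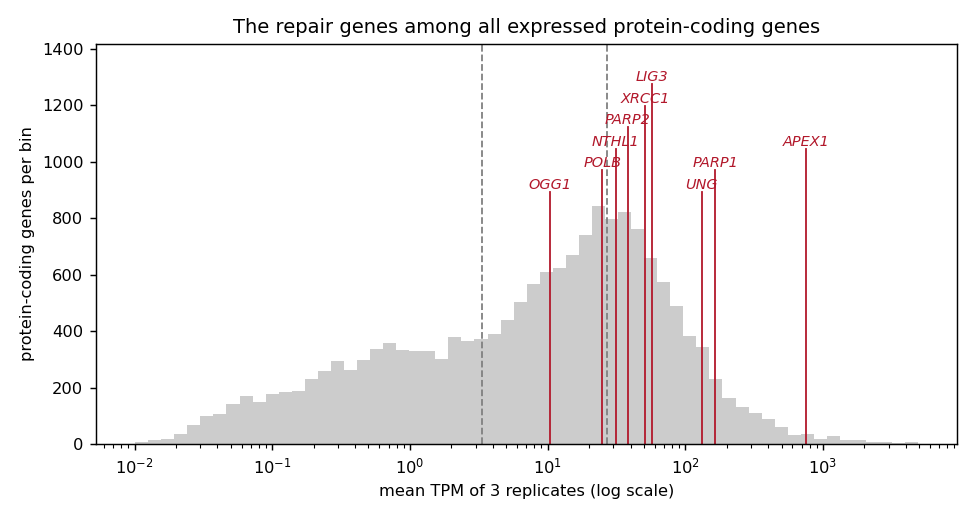
Number of expressed protein-coding genes by mean TPM of 3 replicates (log axis, grey bars), with the means of the repair genes as red lines and the limits of the expression classes, 3.35 and 27.0 TPM, as dashed lines. APEX1 stood in the upper tail at 757 TPM, while 6 of the genes lay between 10.3 and 57.7 TPM.

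Of the 3 glycosylases among these genes, UNG was the most abundant. UNG (ENSG00000076248, GRCh38 chromosome 12, 109097597 to 109126725, plus strand) encodes the enzyme that removes uracil from DNA. Its counts were 1847, 2167 and 1441 in replicates 1, 2 and 3, which gave 135, 136 and 123 TPM. The mean was 131 ± 6.99 TPM (SD, n = 3), above 94.1% of protein-coding genes, with replicate 3 lowest. RefSeq lists 2 transcription start sites for UNG, 575 bp apart at positions 109097597 and 109098172. Alternative starts of this gene give the nuclear and the mitochondrial enzyme, and counts per gene add both together. The canonical transcript of 2048 bases is shorter than the 5271 bases of merged exons and raised the mean to 204 ± 10.1 TPM (SD, n = 3). The pseudogene copies UNGP1 and UNGP3 had 2, 3 and 3 and 7, 2 and 2 reads, respectively.

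OGG1 (ENSG00000114026, chromosome 3, 9749944 to 9788219, plus strand), the glycosylase for oxidized guanine, was the lowest of the 9 genes. It had 227, 255 and 221 reads, or 9.99, 9.65 and 11.4 TPM, with a mean of 10.3 ± 0.930 TPM (SD, n = 3). Replicate 3 was highest. OGG1 was also the gene of the 9 whose level moved by the largest factor from all exons to the canonical transcript. Its merged exons span 8733 bases, 5.36 times its canonical transcript of 1630 bases, and with the latter its mean was 33.5 ± 3.15 TPM (SD, n = 3). Of its merged exons, 24.9% lie over exons of CAMK1 and 4.08% over those of TADA3, both on the opposite strand. CAMK1, which had 54, 65 and 66 reads, has 80.1% of its own exon length in this overlap. TADA3 shares 356 bases and had 574, 635 and 466 reads, or 406 reads per kb of its exons against 80.5 for OGG1. Whether the counting used strand is not given in the sources used here, so that reads of OGG1 cannot be told apart from those of either gene there.

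NTHL1 (ENSG00000065057, chromosome 16, 2039815 to 2047866, minus strand) encodes a glycosylase for oxidized pyrimidines. It had the fewest reads of the 9 genes, 163, 203 and 217, and the widest spread. Its levels were 25.8, 27.6 and 40.2 TPM, with a mean of 31.2 ± 7.88 TPM (SD, n = 3). Replicate 3 stood apart, and replicates 1 and 2 lay close together. With its canonical transcript of 1030 bases the mean was 44.5 ± 11.4 TPM (SD, n = 3). No exon of another annotated gene overlaps those of NTHL1. Within replicates UNG was 5.22, 4.92 and 3.06 times NTHL1 in TPM, and 13.5, 14.1 and 10.8 times OGG1. With canonical transcripts UNG was 5.70, 5.37 and 3.34 times NTHL1 and 6.48, 6.76 and 5.19 times OGG1. UNG was thus above both in every replicate on either length, by a factor that was smallest in replicate 3.

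NTHL1 is also the most GC-rich of the 9 genes. The comparison of replicates below uses the GC content of exons, and the codon values given here do not enter it. In the canonical transcripts, 77.7% of codons of NTHL1 end in G or C, the largest share of the 9 genes, followed by 67.3% in OGG1 and 65.8% in XRCC1. The smallest shares were 39.6% in POLB and 49.4% in PARP2. The middle 240 coding bases of PARP2, after POLB the gene with the smallest share of the 9, are shown as an example of this composition. The bases come from the GENCODE release 44 transcript ENST00000429687.8 (coding bases 736 to 975). They are written in coding direction, and capitals mark a G or C at the third base of a codon, which is the case in 35 of the 80 codons.
PARP2: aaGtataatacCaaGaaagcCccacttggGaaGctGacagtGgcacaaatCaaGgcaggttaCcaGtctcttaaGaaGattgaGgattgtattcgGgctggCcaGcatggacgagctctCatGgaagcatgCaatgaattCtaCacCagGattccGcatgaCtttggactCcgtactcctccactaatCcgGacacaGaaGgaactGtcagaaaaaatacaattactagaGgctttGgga

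APEX1 (ENSG00000100823, chromosome 14, 20455191 to 20457772, plus strand), the main AP endonuclease, was the most abundant of the 9 genes per length. Its counts of 3826, 4325 and 3069 gave 779, 758 and 733 TPM, and its mean was 757 ± 23.1 TPM (SD, n = 3). This lay above 99.4% of protein-coding genes. It is a compact gene whose merged exons, 1886 bases, are 1.30 times its canonical transcript, and with the latter its mean was 593 ± 16.0 TPM (SD, n = 3). Its exons share 92 bases with PIP4P1 on the opposite strand, which had 537, 641 and 474 reads and 7.52% of the reads per kb of APEX1.

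POLB encodes DNA polymerase beta, which fills the gap and trims the sugar left at the abasic site. It (ENSG00000070501, chromosome 8, 42338454 to 42371808, plus strand) had 259, 328 and 219 reads. Its levels were 24.2, 26.4 and 24.0 TPM, with a mean of 24.9 ± 1.31 TPM (SD, n = 3), and the 3 replicates lay close together. APEX1 was 32.2, 28.7 and 30.5 times POLB in TPM. The merged exons of POLB are 3.18 times its canonical transcript of 1290 bases, and with canonical transcripts its mean was 47.8 ± 2.42 TPM (SD, n = 3) and APEX1 was 13.1, 11.7 and 12.4 times as high. The endonuclease stood above the polymerase in every replicate on either length, by a factor that the length changed more than the replicate did.

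XRCC1 and LIG3 encode partners. XRCC1 (ENSG00000073050, chromosome 19, 43543311 to 43580473, minus strand) is the scaffold that binds POLB and LIG3, and LIG3 (ENSG00000005156, chromosome 17, 34980512 to 35009743, plus strand) is the ligase that seals the nick and that also serves mitochondria. XRCC1 had 357, 442 and 301 reads, or 50.0, 53.2 and 49.4 TPM, with a mean of 50.9 ± 2.05 TPM (SD, n = 3). LIG3 had 1915, 2373 and 1580 reads, or 57.0, 60.8 and 55.2 TPM, with a mean of 57.7 ± 2.86 TPM (SD, n = 3). Although LIG3 drew many more reads, its merged exons add up to 12901 bases against 2745 for XRCC1, and per length both were close. Within replicates LIG3 was 1.14, 1.14 and 1.12 times XRCC1, a log2 ratio of 0.18 ± 0.02 (SD, n = 3), and with canonical transcripts it was 1.31, 1.31 and 1.29 times XRCC1. This ratio varied less between replicates than the level of either gene. XRCC1 against POLB depended on the length. It was 2.06, 2.02 and 2.06 times POLB over all exons, and 0.867, 0.847 and 0.864 times POLB with canonical transcripts, so that the direction turned.

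Exon overlap touched both partners. Of the merged exons of LIG3, 29.1% lie over exons of RFFL on the opposite strand, a gene with 652, 716 and 503 reads and 28.4 ± 1.43 TPM (SD, n = 3). LIG3 also shares 180 bases with CCT6B on that strand, which had 12, 16 and 6 reads. Of the merged exons of XRCC1, 17.6% lie over exons of the lncRNA gene ENSG00000269583 on the opposite strand, which had 38, 38 and 28 reads. XRCC1 also shares 68 bases with the lncRNA gene ENSG00000269177 on that strand, which had 23, 24 and 19 reads. A further 8.16% is shared on the same strand with ENSG00000268361, which is listed at 0 reads in every library. A count of 0 allows up to 3 reads per library, and this limit covers counting error only.

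PARP1 and PARP2 encode the enzymes that bind DNA breaks and build poly(ADP-ribose) chains there. PARP1 (ENSG00000143799, chromosome 1, 226360210 to 226408154, minus strand) had 8251, 9129 and 6532 reads, the most of the 9 genes. Its levels were 172, 164 and 160 TPM, with a mean of 165 ± 6.28 TPM (SD, n = 3). Its merged exons add up to 18399 bases, 4.63 times the canonical transcript of 3978 bases, a factor exceeded by 3.29% of the protein-coding genes with at least 20 reads in every replicate. With the canonical transcript its mean was 462 ± 16.2 TPM (SD, n = 3), which brought it to within 1.28-fold of APEX1, from 4.58-fold. APEX1 stayed above PARP1 in all 3 replicates on both lengths. The pseudogene copy PARP1P1 had 3, 2 and 3 reads, and PARP1P2 is listed at 0.

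PARP2 (ENSG00000129484, chromosome 14, 20343615 to 20357904, plus strand) had 418, 456 and 342 reads. Its levels were 39.5, 37.1 and 37.9 TPM, with a mean of 38.2 ± 1.24 TPM (SD, n = 3), or 51.2 ± 1.63 TPM with the canonical transcript. PARP1 was 4.36, 4.42 and 4.22 times PARP2 in TPM, a log2 ratio of 2.11 ± 0.03 (SD, n = 3). With canonical transcripts PARP1 was 9.07, 9.19 and 8.77 times PARP2. The replicates agreed on this ratio far more closely than the choices of length did. The exons of PARP2 share 26 bases with ENSG00000254846, which had 11, 20 and 12 reads, and 71 bases with ENSG00000259001, listed at 0. Both are lncRNA genes on the opposite strand.

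In the order of all 9 genes, the ranges of the 3 replicates did not meet between APEX1, PARP1, UNG, LIG3, XRCC1 and PARP2, each against the next. They overlapped between PARP2 and NTHL1 and between NTHL1 and POLB, and the range of POLB lay above that of OGG1. With canonical transcripts APEX1, PARP1, UNG and LIG3 kept their places. LIG3, PARP2, POLB, NTHL1 and XRCC1 then followed in an order in which every neighbor overlapped with the next, and OGG1 stayed last. Between the highest and the lowest of the 6 genes from LIG3 to OGG1 there was a factor of 5.57 over all exons, of 4.89 with the longest transcript and of 1.60 with the canonical transcript. An exact sign-flip test over 3 replicates cannot give a two-sided p below 0.25, so no test was made between genes.

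As a ratio of the highest to the lowest replicate, the spread was small for most of these genes. It was examined on CPM, read counts scaled to a total of 1000000 in every library, which needs no gene length. The highest replicate was at least 1.2 times the lowest in 2 of the 9 genes, NTHL1 at 1.60 and OGG1 at 1.204. Among 12145 protein-coding genes with at least 20 reads in every replicate, 31.3% passed this limit. The other 7 genes had ratios from 1.04, for APEX1, to 1.09, for POLB. The CV of TPM had a median of 4.95% over the 9 genes, with a range from 3.05% for APEX1 to 25.2% for NTHL1, against 6.52% over the 12145 genes. OGG1 lay just past the limit and fell below it under rescaling by TMM, at 1.19, under rescaling by DESeq2 size factors, at 1.17, and without replicate 2, at 1.17. The share of the 12145 genes past the limit was then 30.8%, 30.9% and 21.9%. Without replicate 1 both genes passed it, beside 19.9%. Without replicate 3 none of the 9 genes passed it, NTHL1 had 1.08, and the share of the 12145 genes was 11.2%.

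Counting error alone gives a spread that shrinks with the number of reads. For NTHL1 the CPM values were 15.7, 16.9 and 25.1, and their SD of 5.11 was 3.72 times the SD of 1.37 that counting gives at these depths. This multiple lay above that of 95.9% of the 12145 genes, whose median was 1.19. PARP1 followed with 2.48 times, at 794, 759 and 755 CPM, where its many reads make counting error small. LIG3 had 1.88, UNG 1.76, OGG1 1.56 and APEX1 1.16 times. The median of the 9 genes was 1.56, against 1.19 over the 12145 genes. It was 1.36 without NTHL1 and 1.16 without NTHL1 and OGG1. Beside counting error, the spread was thus not small for all of the 9 genes. PARP2, XRCC1 and POLB had SDs below their counting SD, at 0.601, 0.688 and 0.792 times. Differences between the replicates in these 3 genes were thus not detectable at this depth.

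Replicate 3 of NTHL1 was 1.54 times the mean of replicates 1 and 2 in CPM, and it was the one gene of the 9 to reach 1.2 times in that direction, beside 14.6% of the 12145 genes. OGG1 had 1.19 times, and the other 7 had from 0.930 times, for UNG, to 1.01 times, for PARP2. The exons of NTHL1 have a GC content of 63.2%, higher than in 95.1% of the 12145 genes, whose median was 47.6%. Those of OGG1 have 52.4%. XRCC1 has the second highest value of the 9, 58.0%, and was not higher in replicate 3, at 0.978 times. Across the 9 genes, Spearman's rho between exon GC content and this ratio was 0.550, and across the 12145 genes it was 0.40. Genes are not independent replicates, all points share the same 3 libraries, and no test was made. When the median deviation of genes of like exon GC content, in 20 bins, was subtracted, the ratio of NTHL1 was 1.22 and that of OGG1 was 1.199, and both genes kept a highest replicate at least 1.2 times the lowest, beside 26.4% of the 12145 genes. The part of GC content in the level of NTHL1 was otherwise not tested.

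**Figure D3:**
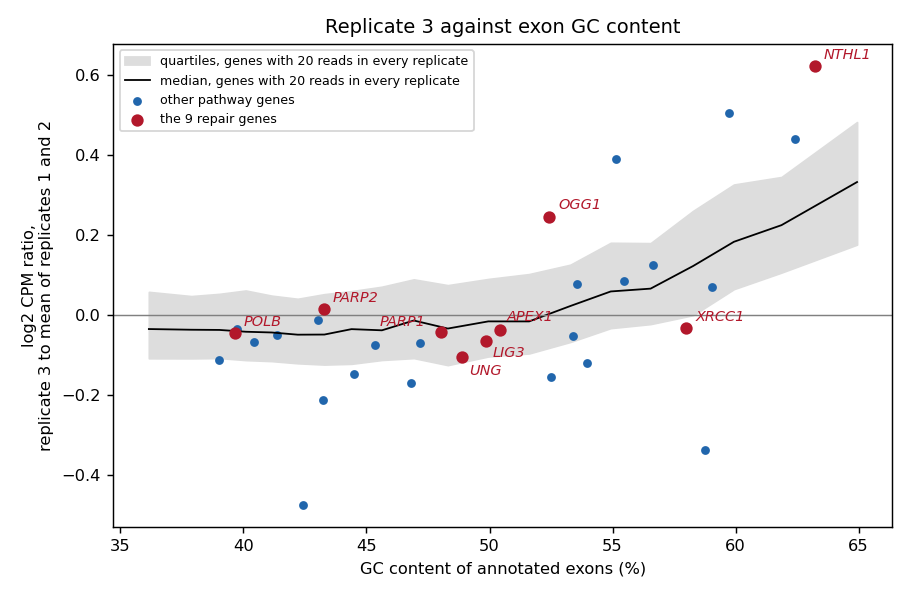
Log2 ratio of CPM in replicate 3 to the mean of replicates 1 and 2 against the GC content of annotated exons in percent, for the repair genes (red), other genes of the pathway (blue) and, as median and quartiles in 20 bins, 12145 protein-coding genes. NTHL1, with 63.2% GC, lay highest of the 9 genes, while XRCC1, with 58.0%, lay near 0.

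Other genes of the pathway were taken from a list of 24. Of these, 16 were in the high class, beside 28.8% of protein-coding genes, 6 in the medium and 2 in the low class. With canonical transcripts the numbers were the same, again beside 28.8%, but some genes changed class. Their median was 38.5 TPM. The highest was PCNA, the sliding clamp of replication and long-patch repair, with 802 ± 36.4 TPM (SD, n = 3). The lowest was PARP3, a further break-sensing poly(ADP-ribose) polymerase, with 2, 5 and 7 reads and 0.581 ± 0.377 TPM (SD, n = 3), where 1 library lies at or below the limit of 3 reads.

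The 8 other glycosylases ranged from NEIL1, for oxidized bases, at 6.07 ± 1.27 TPM (SD, n = 3) to TDG, for thymine and uracil paired with guanine, at 115 ± 3.32 TPM (SD, n = 3). UNG was thus the highest of 11 glycosylases by mean TPM, also with canonical transcripts. OGG1 ranked 10 of 11 over all exons and 6 of 11 with canonical transcripts. SMUG1, a further uracil glycosylase, had 15.4 ± 1.36 TPM, MUTYH, which removes adenine opposite oxidized guanine, 15.4 ± 2.48 TPM and NEIL3 17.3 ± 2.28 TPM (SD, n = 3), all in the medium class. With canonical transcripts MUTYH had 31.7 TPM and was in the high class. NEIL2 went the other way, from just inside the high class at 27.0 TPM over all exons to 20.3 TPM, in the medium class. Summed over the 11 glycosylases, the level was 443, 463 and 456 TPM in replicates 1, 2 and 3, or 454 ± 10.1 TPM (SD, n = 3), which is below the level of APEX1 in every replicate. With canonical transcripts the sum was 554 ± 13.3 TPM against 593 ± 16.0 TPM for APEX1 (SD, n = 3). In CPM, 3 of the 8 other glycosylases reached 1.2 times in replicate 3 against the mean of replicates 1 and 2, beside 14.6% of the 12145 genes. They were MPG at 1.36, NEIL1 at 1.42 and MUTYH at 1.31 times, with exon GC contents of 62.4%, 59.7% and 55.1%. The other 5 were at 0.864 to 0.977 times, NEIL2, with 54.0% GC, at 0.921 and SMUG1, with 52.5%, at 0.898 among them. ADPRS, which removes ADP-ribose from proteins, has 58.8% GC and was at 0.792 times. After the GC correction MPG was at 1.16, NEIL1 at 1.25 and MUTYH at 1.25 times. NEIL2 was then at 0.908, SMUG1 at 0.885 and ADPRS at 0.729 times. The part of GC content in these ratios was not tested.

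APEX2, the other AP endonuclease, had 35.0 ± 1.42 TPM (SD, n = 3), in the high class and far below APEX1. With canonical transcripts APEX2 had 21.1 TPM and was in the medium class. POLL, a polymerase related to POLB, had 18.6 ± 0.771 TPM (SD, n = 3), in the medium class. Among genes listed for the processing of break ends, TDP1 had 40.7 ± 1.86 TPM (SD, n = 3), in the high class. APTX had 9.79 ± 0.801 TPM and APLF 2.02 ± 0.383 TPM (SD, n = 3), in the medium and the low class. With canonical transcripts APTX had 46.6 TPM and was in the high class. The 3 genes of long-patch repair were all in the high class, down to LIG1 at 32.9 ± 0.811 TPM (SD, n = 3). With canonical transcripts LIG1, the ligase of replication, was at 72.0 TPM, above LIG3 at 53.6 TPM, while over all exons LIG3 was above LIG1. Of 5 genes that handle poly(ADP-ribose), CHD1L, a chromatin remodeler activated by it, was highest at 76.3 ± 5.99 TPM (SD, n = 3), and PARP3 was the only one outside the high class. Exon overlap touched some of the other pathway genes too. Of the merged exons of CHD1L, 63.2% lie over exons of other genes on the same strand. This share was 31.6% for MUTYH and 22.9% for APLF. On the opposite strand it was 30.1% for MPG and 30.5% for NEIL1. NUDT1, which clears oxidized nucleotides, had 63.5 ± 1.67 TPM, and the chromatin protein HMGB1 300.2 ± 12.2 TPM (SD, n = 3).

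**Figure D4:**
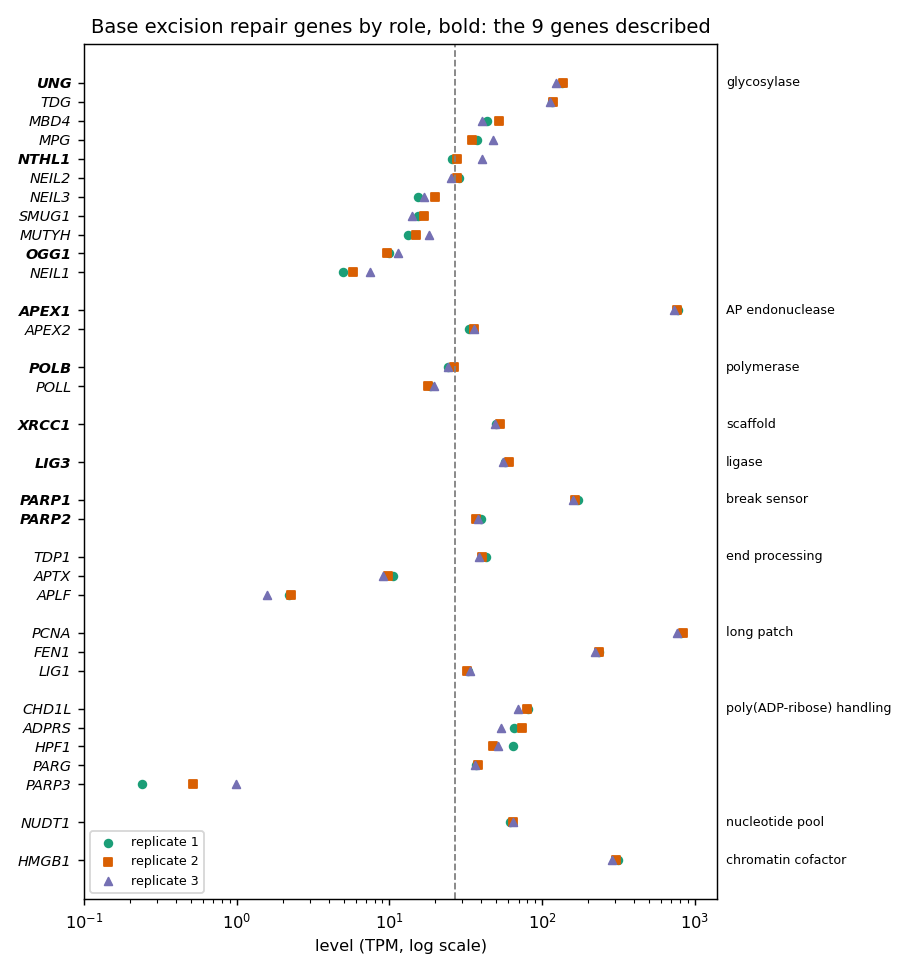
Level in TPM (log axis) of 32 genes of base excision and single-strand break repair in 3 replicates of H9 cells, ordered by role, with the 9 genes described in bold and the lower limit of the high class, 27.0 TPM, as a dashed line. UNG led the glycosylases, APEX1 and PCNA lay near the right edge, and PARP3 was lowest.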

How the data were processed

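RNA of 3 replicates of untreated H9 cells was analysed. Per the labels and the study's methods, the authors trimmed reads with Trim Galore 0.4.4 and aligned them to GRCh38 with TopHat2 2.1.1. The values deposited are raw counts of reads per gene, in whole numbers, without normalization. Which tool and annotation produced the counts, and whether strand was used, is not given in the sources used here.

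Of 58051 identifiers, 56948 matched GENCODE release 44, on the same build. Each deposited count was divided by gene length and scaled to TPM within a library over matched genes, and means and SDs were taken over 3 replicates. CPM used the library totals, from 8655155 to 12024802 counts. Counting SDs are Poisson and cover counting error only, as PCR copies are not independent molecules. Expression classes use the study's scheme, on the TPM above and over protein-coding genes. GC correction subtracted the median deviation of log2 CPM in 20 bins of exon GC content. The steps were tested on simulated counts. Alternatives were other lengths, CPM, edgeR (4.0.16) TMM factors, DESeq2 (1.42.0) size factors, other class limits, mitochondrial genes left out and each replicate left out. Python 3.11.15, pandas 2.3.3, numpy 2.4.6 and R 4.3.3 were used.

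The genes and lists were chosen with earlier results of these data known. All 9 genes are named, as are genes whose exons overlap those of the 9 and annotated copies of the 9. Of the 24 other pathway genes, the highest and lowest of each role and those outside the high class are named. The exception is 1 gene that is in the counts and not reported by value here. MPG, NEIL2, ADPRS and TDP1 were named after their values were seen.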

Additional observations from a re-analysis of the deposited data

How the results depend on the processing

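Rescaling by TMM or DESeq2 factors, the median of the replicates and leaving out each replicate moved no mean by more than its SD. Neither the median of 3 replicates nor leaving out 1 of 3 can do so, however. The longest transcript as length moved 8 of 9 means (7 higher, 1 lower), the canonical transcript all 9 (6 higher, 3 lower), and leaving mitochondrial genes out of the TPM total 4, all higher. The median of the 9 means, 50.9 TPM, was 59.0 TPM with the longest transcript and 53.0 TPM without mitochondrial genes, and in CPM, another unit, 39.2. Leaving out a replicate gave 49.7 to 51.6 TPM. CPM does not divide by length, and in it 4 of the 8 neighbors in the order kept their direction. The high class then held 5 in place of 7 of the 9 genes, without XRCC1 and NTHL1. It held 10 in place of 16 other pathway genes, beside 28.8% of protein-coding genes. It held 9 and 21 with class limits over all genes and 6 and 12 with genes under 1 TPM called nonexpressed, beside 47.6% and 22.5% of protein-coding genes.

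The log2 ratio of XRCC1 to POLB, 1.03, was reversed at -0.16 with the longest and -0.22 with the canonical transcript. That of PARP1 to PARP2 moved from 2.11 to 2.64 and 3.17, that of LIG3 to XRCC1 from 0.18 to 0.38 under both lengths, and that of APEX1 to POLB from 4.93 to 3.38 and 3.63. That of UNG to OGG1 moved from 3.67 to 2.61 with the canonical transcript. Lengths enter these ratios directly.

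The number of genes whose highest replicate was at least 1.2 times the lowest, 2, was 1 under TMM and under DESeq2 factors. It was 0 to 2 with 1 replicate left out, as OGG1 was lost without replicate 2 and both genes without replicate 3. The share of all 12145 genes fell as well, from 31.3% to between 11.2% and 21.9%. No paired analysis was possible because all 3 libraries belong to 1 condition and no groups share replicate numbers. Ratios between genes were taken within replicates. Depth limits PARP2, XRCC1 and POLB, whose spread was below counting error, and, of the other genes, PARP3 with 2 to 7 reads.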
